A study of Mus musculus with 6 samples.

Results

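Matrix metalloproteinases (MMPs) and their tissue inhibitors (TIMPs) were examined as a set of 10 genes, 6 proteases (*Mmp2*, *Mmp3*, *Mmp8*, *Mmp9*, *Mmp14* and *Mmp19*) and the 4 inhibitors (*Timp1* to *Timp4*). They were found by their symbols among 19505 genes that the array names, and each was represented by 1 probe set. They were measured in 3 mice lacking *Col1a2* (*Col1a2*-/-) and 3 heterozygous mice (*Col1a2*+/-), all aged 2 months and on a C57/BL6 background, with 1 Affymetrix Clariom S mouse array per heart and no treatment or surgery. *Col1a2* encodes the alpha-2 chain of type I collagen, the main fibrillar collagen of the heart. The mutant allele is a germline knockout-first allele, in which an inserted cassette interrupts the gene in every tissue, and the control hearts carry 1 copy of the same allele, so no wild-type heart was compared. The labels describe the tissue as whole heart and the methods as ventricles, and the labels give no sex.

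MMPs are zinc-dependent endopeptidases that cleave collagens, proteoglycans and other components of the extracellular matrix (ECM), and most are made as inactive precursors that lose an inhibitory propeptide on activation. TIMPs bind the active site of MMPs and block it. In the heart, fibroblasts are a main source of both, and leukocytes bring in some of the proteases. All values here are mRNA signals, which do not measure secretion, activation or inhibition of the enzymes.

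Each value is a log2 signal per probe set, so a difference of 1 is a doubling. Genotypes were compared with limma across all 22206 probe sets that are not controls, *Col1a2*-/- minus *Col1a2*+/-, and p-values were adjusted by the Benjamini-Hochberg method over all of them. A probe set was called dim below 5.97. This is the level under which 95% of the 1450 probe sets of chemosensory receptor genes fell, and 12815 of all probe sets averaged above it. Array medians ranged from 6.64 to 6.67. The targeted gene *Col1a2* ranged from 9.06 to 9.47 in *Col1a2*+/- hearts and from 6.48 to 6.86 in *Col1a2*-/- hearts, a difference of -2.51 (SE 0.19, limma adjusted p = 0.00626). It was the only adjusted call, 0.0045% of all probe sets, and its limma adjusted p was 0.0948 without *Col1a2*+/- heart 3294 and 0.0562 without *Col1a2*-/- heart 2770. All 12 cardiomyocyte markers lay above the dim limit, with mean log2 signals of 17.92 to 18.01 and 17.97 to 18.00 in *Col1a2*+/- and *Col1a2*-/- hearts.

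*Col1a2*+/- heart 3294 stood apart from the others. Its signal for the Y-linked gene *Uty* was 2.65, against 11.58 to 11.90 in the other 5 hearts. By this gene it reads as female and the others, with all *Col1a2*-/- hearts among them, as male. The part of sex in the differences between genotypes was not tested. Its signal for *Bmp10*, a gene of atrial muscle, was 13.89 against 3.54 to 5.35. *Ucp1*, a gene of brown fat, read 8.33 against 3.60 to 4.30. Of the other brown fat genes listed, *Adipoq* (7.78) and *Cidec* (7.35) were also highest in this heart. So was *Elovl3*, narrowly and at a dim level, whereas *Cidea* (9.65) and *Plin1* (5.13) lay among the other hearts. The atrial gene *Myl7* read 13.47 in heart 3294, but it also varied widely in the others, from 8.07 to 12.08. The other atrial genes listed were also highest in heart 3294. These were *Myl4* (15.61), *Nppa* (18.58), *Sln* (13.36), *Dkk3* (9.94) and, narrowly, *Fgf12* (8.90) and *Kcnj3* (12.91). Hearts are named by the animal numbers in their labels, which form 2 series, 27 (*Col1a2*+/- heart 2769, *Col1a2*-/- hearts 2767 and 2770) and 32 (*Col1a2*+/- hearts 3201 and 3294, *Col1a2*-/- heart 3200). The labels do not say what the series stand for. Differences of each member within the series are therefore given beside the pooled ones, and each within-series value rests on 1 heart of one genotype.

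None of the 10 genes passed the adjusted threshold. *Mmp19* and *Timp1* were higher in *Col1a2*-/- hearts at an unadjusted p under 0.05 and none was lower, against 2.67% of all probe sets higher and 2.79% lower by the same criterion. In 3 genes, *Mmp3*, *Mmp19* and *Timp1*, every *Col1a2*-/- heart lay above every *Col1a2*+/- heart, and in none did every one lie below, against 5.13% and 5.47% of all probe sets. Signals were nominally higher in *Col1a2*-/- hearts for 7 of 10 genes, with a median log2 difference of 0.31, against 49.9% and -0.001 for all probe sets. The median was 0.41 over the 6 MMPs, of which 5 were positive, and -0.05 over the 4 TIMPs, of which 2 were positive. The members were chosen with earlier results of these data known, so these counts are descriptions and not a test of the set. Without *Col1a2*+/- heart 2769, 4 genes were higher at the unadjusted threshold, *Mmp3* and *Mmp14* being added. In the other direction, 1 gene lay lower without overlap when *Col1a2*-/- heart 2767 (*Timp2*) or 2770 (*Mmp9*) was left out. The shares of all probe sets above hold for the full set of hearts. They were not taken for these smaller sets, so the changed counts cannot be read against them. With 3 hearts per genotype, an exact two-sided permutation test on a single gene cannot give a p below 0.1.

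**Figure D1:**
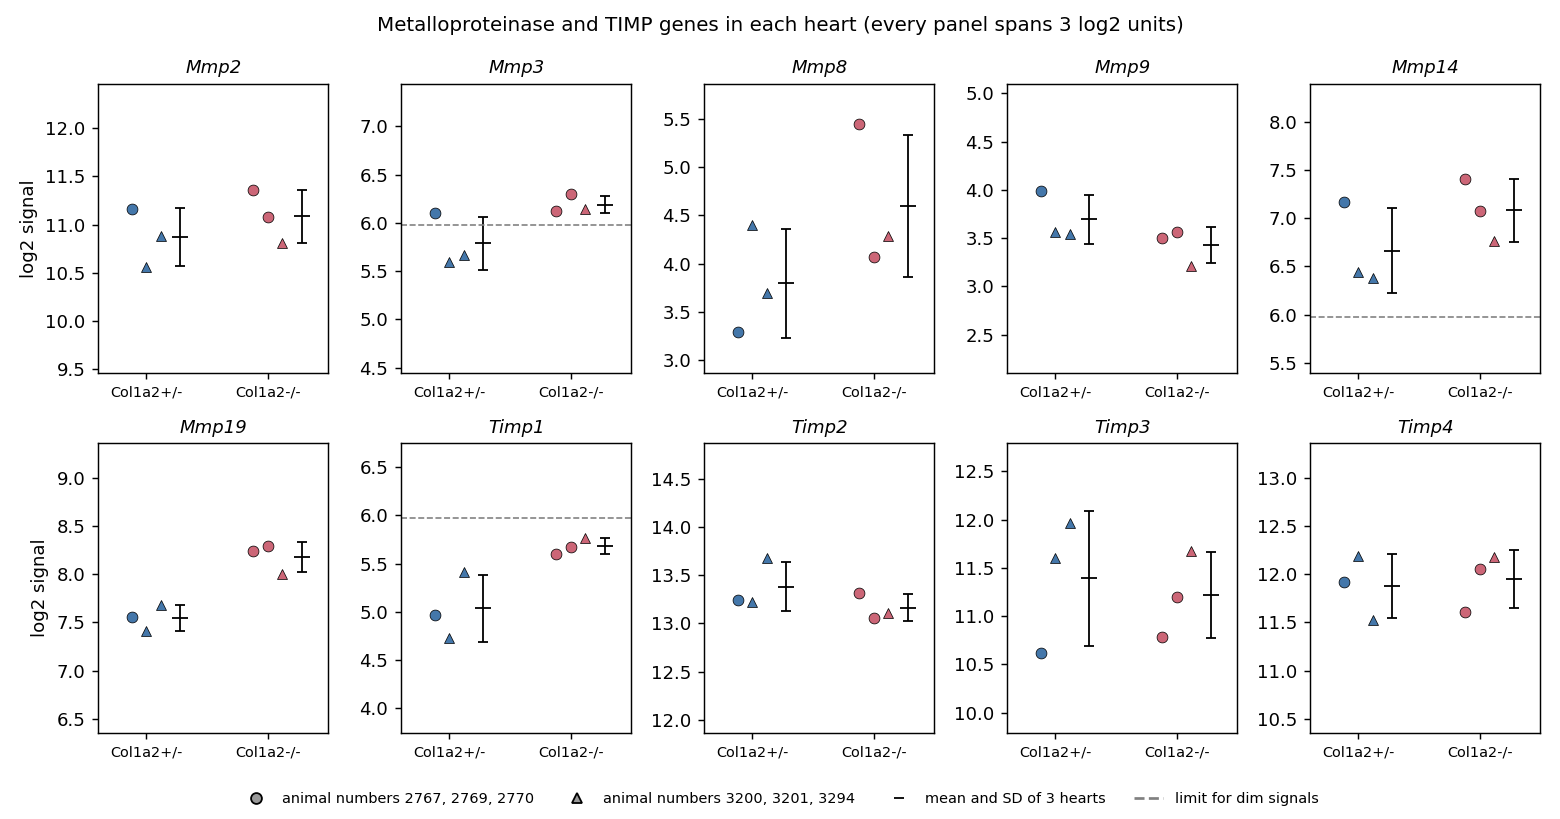
Log2 signal (vertical axis) of the 10 genes in each of 6 hearts by genotype, with circles for animal numbers of series 27, triangles for series 32, black bars for the mean and SD of 3 hearts and a dashed line at the dim limit of 5.97. The *Col1a2*-/- hearts lie above all *Col1a2*+/- hearts in the panels for *Mmp3*, *Mmp19* and *Timp1*, and for *Timp3* the triangles lie above the circles.

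Among the proteases, *Mmp19* differed most clearly between genotypes. It encodes a secreted MMP that cleaves components of basement membranes. Its log2 signals were 7.55, 7.41 and 7.68 in *Col1a2*+/- hearts 2769, 3201 and 3294, and 8.24, 8.30 and 8.0 in *Col1a2*-/- hearts 2767, 2770 and 3200. The lowest *Col1a2*-/- heart exceeded the highest *Col1a2*+/- heart. The group means were 7.55 ± 0.13 and 8.18 ± 0.16 (SD, n = 3 each), a difference of 0.63 (SE 0.17, 95% interval 0.25 to 1.01) or 1.55-fold, with an unadjusted limma p of 0.00428, an adjusted p of 0.87 and an exact permutation p of 0.1. The difference was 0.72 within series 27 and 0.45 within series 32.

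*Mmp3* encodes stromelysin-1, which degrades proteoglycans and fibronectin and activates the precursors of other MMPs. It was measured at 6.11, 5.59 and 5.67 in *Col1a2*+/- hearts 2769, 3201 and 3294, and at 6.13, 6.29 and 6.14 in *Col1a2*-/- hearts 2767, 2770 and 3200. The genotypes did not overlap, but *Col1a2*+/- heart 2769 lay next to *Col1a2*-/- heart 2767, and only 4 of the 6 hearts were above the dim limit. The difference of 0.40 (SE 0.18, 95% interval -0.017 to 0.82) did not pass the unadjusted threshold (limma p = 0.058, adjusted p = 0.906, exact permutation p = 0.1). It was 0.11 within series 27 and 0.52 within series 32.

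*Mmp14* encodes MT1-MMP, a membrane-anchored collagenase that activates pro-MMP2 at the cell surface in a complex with TIMP2, and *Mmp2* encodes gelatinase A, the target of that activation. For *Mmp14*, the signals were 7.17, 6.44 and 6.38 in *Col1a2*+/- hearts 2769, 3201 and 3294, and 7.41, 7.07 and 6.76 in *Col1a2*-/- hearts 2767, 2770 and 3200. For *Mmp2*, they were 11.16, 10.56 and 10.89, and 11.36, 11.08 and 10.81, in the same order. In both genes the genotypes overlapped, and within each genotype the hearts of series 27 were the brighter ones. The genotype difference was 0.42 for *Mmp14* (SE 0.26, 95% interval -0.16 to 1.00, limma adjusted p = 0.93) and 0.22 for *Mmp2* (SE 0.21, 95% interval -0.27 to 0.70, limma adjusted p = 0.955). Within series 27 and series 32, it was 0.071 and 0.35 for *Mmp14*, and 0.060 and 0.089 for *Mmp2*. Leaving out single hearts moved it between 0.25 (without *Col1a2*-/- heart 2767) and 0.67 (without *Col1a2*+/- heart 2769) for *Mmp14*, and between 0.062 (without *Col1a2*+/- heart 3201) and 0.36 (without *Col1a2*+/- heart 2769) for *Mmp2*.

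*Mmp8* (neutrophil collagenase) and *Mmp9* (gelatinase B) encode proteases that neutrophils store in their granules, and *Mmp9* is also made by macrophages. Both lay below the dim limit in all 6 hearts, so no fold is given for them. *Mmp8* read 3.29, 4.40 and 3.69 in *Col1a2*+/- hearts 2769, 3201 and 3294, and 5.44, 4.06 and 4.29 in *Col1a2*-/- hearts 2767, 2770 and 3200. Its highest value came from *Col1a2*-/- heart 2767 alone and the genotypes overlapped, with a difference of 0.80 (SE 0.39, 95% interval -0.070 to 1.68, limma p = 0.0671, exact permutation p = 0.3). *Mmp9* read 3.99, 3.56 and 3.54 against 3.51, 3.57 and 3.21, a difference of -0.27 (SE 0.19, 95% interval -0.70 to 0.16, limma p = 0.194, exact permutation p = 0.3). These genotypes overlapped too. Within series 27 and series 32, the difference was 1.47 and 0.24 for *Mmp8*, and -0.45 and -0.34 for *Mmp9*. Leaving out single hearts gave 0.38 (without *Col1a2*-/- heart 2767) to 1.11 (without *Col1a2*+/- heart 3201) for *Mmp8*, and -0.35 (without *Col1a2*+/- heart 3294) to -0.12 (without *Col1a2*+/- heart 2769) for *Mmp9*. With the series of animal numbers as a covariate, the *Mmp9* difference was -0.39 and passed the unadjusted threshold (limma adjusted p = 0.963). Of 11 neutrophil markers measured, 9 were dim, *S100a8* and *S100a9* among them. At an unadjusted p under 0.05, 1 was higher (*Retnlg*), against 2.67% of all probe sets. *Retnlg* was dim in all hearts and overlapped between genotypes. The mean log2 signal of the 11 markers was 5.11 to 5.19 in *Col1a2*+/- and 5.0 to 5.33 in *Col1a2*-/- hearts. The part of neutrophils in the *Mmp8* and *Mmp9* values was not tested.

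Among the inhibitors, *Timp1* had the clearest difference. It encodes a soluble inhibitor that binds pro-MMP9 and is known as an inducible gene of fibrotic tissue. Its signals were 4.97, 4.73 and 5.41 in *Col1a2*+/- hearts 2769, 3201 and 3294, and 5.60, 5.67 and 5.77 in *Col1a2*-/- hearts 2767, 2770 and 3200. The genotypes did not overlap, and the *Col1a2*-/- hearts were the closer together. The means were 5.04 ± 0.35 and 5.68 ± 0.08 (SD, n = 3 each), a difference of 0.64 (SE 0.20, 95% interval 0.19 to 1.10, unadjusted limma p = 0.0109, adjusted p = 0.872, exact permutation p = 0.1). It was 0.66 within series 27 and 0.70 within series 32. All 6 values lay below the dim limit, so the size of the change in mRNA is uncertain and no fold is given.

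*Timp2* encodes the inhibitor that also takes part in pro-MMP2 activation. It was measured at 13.24, 13.22 and 13.67 in *Col1a2*+/- hearts 2769, 3201 and 3294, and at 13.32, 13.05 and 13.11 in *Col1a2*-/- hearts 2767, 2770 and 3200. The genotypes overlapped, with the highest value in *Col1a2*+/- heart 3294, and the difference was -0.22 (SE 0.18, 95% interval -0.64 to 0.20, limma p = 0.267, exact permutation p = 0.3). It was -0.054 within series 27 and -0.34 within series 32, and -0.071 without *Col1a2*+/- heart 3294.

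*Timp4* encodes the inhibitor known for its high level in heart, and *Timp3* one that binds to the ECM and also blocks ADAM proteases. *Timp4* was at 11.92, 12.18 and 11.52 in *Col1a2*+/- hearts and at 11.61, 12.05 and 12.18 in *Col1a2*-/- hearts, in the order used above, with a difference of 0.071 (SE 0.23, 95% interval -0.44 to 0.58, limma p = 0.76, exact permutation p = 0.8). *Timp3* had 10.61, 11.60 and 11.96 against 10.78, 11.20 and 11.68, a difference of -0.17 (SE 0.35, 95% interval -0.97 to 0.62, limma p = 0.637, exact permutation p = 0.8). Both genes overlapped between genotypes, and *Timp3* had the widest spread within a genotype of the members above the dim limit. Within series 27 and series 32 the differences had opposite signs, 0.38 and -0.10 for *Timp3*, and -0.087 and 0.32 for *Timp4*. Without *Col1a2*+/- heart 3294 the pooled sign turned in both, to 0.12 for *Timp3* and -0.11 for *Timp4*.

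The promoter windows of RefSeq (build GRCm38.p6, 250 bases before to 50 after each start) held 7 of the 10 genes and not *Mmp2*, *Mmp9* and *Mmp19*. They were searched on both strands for the AP-1 site TGANTCA and its variant TGAGTAA, the PEA3 site AGGAAG, the GC box GGGCGG and the TATA box TATAAA. No match overlapped another. The bases before the start are printed for *Mmp3* and *Timp1*, 2 of the genes without overlap between genotypes, and for *Timp2*, whose genotypes overlapped, with every match to these motifs in capitals. CCGCCC is the GC box read on the other strand.
Mmp3, chr9:7445572-7445821, plus strand: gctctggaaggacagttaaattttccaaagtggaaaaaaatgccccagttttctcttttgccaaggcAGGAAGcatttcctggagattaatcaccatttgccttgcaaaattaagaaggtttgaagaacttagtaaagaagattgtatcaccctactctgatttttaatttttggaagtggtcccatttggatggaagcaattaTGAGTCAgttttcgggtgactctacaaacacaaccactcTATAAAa
Timp1, chrX:20869916-20870165, plus strand: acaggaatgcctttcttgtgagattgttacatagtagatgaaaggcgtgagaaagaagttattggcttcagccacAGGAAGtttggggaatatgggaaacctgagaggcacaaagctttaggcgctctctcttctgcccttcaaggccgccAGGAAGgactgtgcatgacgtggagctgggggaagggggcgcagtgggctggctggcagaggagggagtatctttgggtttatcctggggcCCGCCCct
Timp2, chr11:118355412-118355661, minus strand: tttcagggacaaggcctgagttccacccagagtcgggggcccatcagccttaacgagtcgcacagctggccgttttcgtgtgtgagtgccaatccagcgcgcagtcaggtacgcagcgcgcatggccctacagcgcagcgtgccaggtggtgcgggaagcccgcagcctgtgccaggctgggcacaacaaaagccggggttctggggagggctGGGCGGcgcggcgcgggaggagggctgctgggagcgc

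The AP-1 site was found in 1 of the 7 members, *Mmp3*, at positions -46 to -40 from the start, and in 7.81% of all 32851 windows. The *Mmp3* window also held a match to the TATA box letters at -7 to -2. On either strand, 13.6% of windows and 2 of the 7 members had such a match. The other member was *Mmp8*, at -3 to 3 on the opposite strand, across the start. *Timp1* held the AP-1 variant at 27 to 33 after the start, in the part not printed, and 2.68% of windows had one. It also held PEA3 sites at -175 to -170, -99 to -94 and, after the start, 41 to 46, and 6 of the 7 members had at least 1 PEA3 site, against 35.4% of windows. The GC box was found in *Mmp14*, *Timp1*, *Timp2* and *Timp3*, 4 of 7, against 35.7% of windows. The *Timp2* window matched the GC box alone of these motifs. These matches are letters in a window and say nothing of binding.

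Balances between partners were read as the protease signal minus the inhibitor signal in each heart, relative to the *Col1a2*+/- mean, with no test. For *Mmp9* minus *Timp1*, the values were 0.36, 0.18 and -0.53 in *Col1a2*+/- hearts 2769, 3201 and 3294, and -0.75, -0.76 and -1.21 in *Col1a2*-/- hearts 2767, 2770 and 3200. All *Col1a2*-/- hearts lay below all *Col1a2*+/- hearts, by a mean of -0.91 (-1.115 within series 27 and -1.03 within series 32), but both probe sets were dim. *Mmp14* minus *Timp2* had a mean difference of 0.64 and *Mmp2* minus *Timp2* one of 0.43, and in both the genotypes overlapped, as *Col1a2*+/- heart 2769 lay among the *Col1a2*-/- hearts. Within series 27 and series 32, they were 0.13 and 0.69 for *Mmp14* minus *Timp2*, and 0.11 and 0.43 for *Mmp2* minus *Timp2*. Without *Col1a2*+/- heart 3294 they were 0.34 and 0.29, and without *Col1a2*+/- heart 2769 they were 0.96 and 0.65. *Mmp19* minus *Timp1* overlapped between genotypes, with a mean of -0.011 (0.052 within series 27 and -0.24 within series 32), and as *Timp1* was dim, the sizes of their changes cannot be compared.

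**Figure D2:**
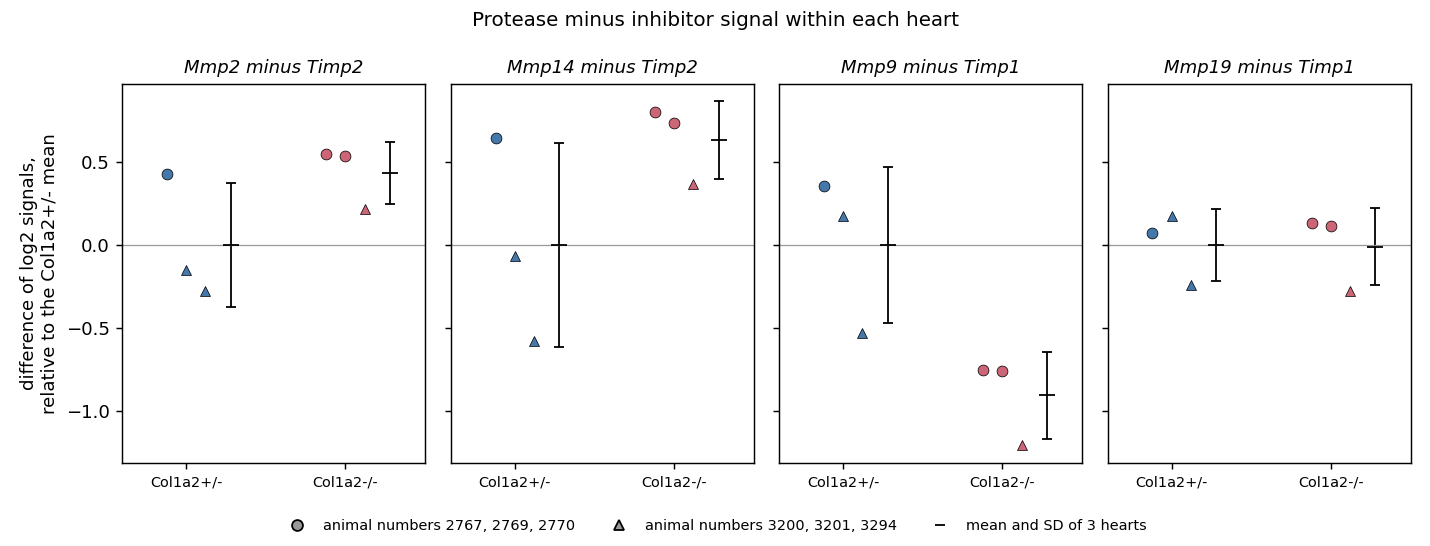
Protease minus inhibitor log2 signal within each heart (vertical axis, relative to the *Col1a2*+/- mean) by genotype for 4 pairs, with circles and triangles for the series of animal numbers and bars for the mean and SD of 3 hearts. Only in the panel of *Mmp9* minus *Timp1* do the genotypes not overlap, with *Col1a2*-/- hearts at -0.75 to -1.21.

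Several members differed between the series of animal numbers, taken with genotype in the same fit. Over all probe sets, 12.5% did not overlap between the series, and among the members 3 of 10 did not. *Timp3* ranged from 10.61 to 11.20 in the 3 hearts of series 27 and from 11.60 to 11.96 in those of series 32, a difference of 0.93 (SE 0.22) or 1.90-fold (limma adjusted p = 0.609). *Mmp14* was lower in series 32, at 6.38 to 6.76 against 7.07 to 7.41, a difference of -0.62 (SE 0.19, limma adjusted p = 0.685). *Mmp2* was at 10.56 to 10.89 in series 32 and at 11.08 to 11.36 in series 27, a difference of -0.42 (SE 0.19, limma adjusted p = 0.792). For these 3 genes the difference between series was larger than that between genotypes.

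By an unadjusted p under 0.05, 3 members differed between the series (*Timp3*, *Mmp14* and *Mmp9*), against 6.33% of all probe sets, and none passed after adjustment, nor did any other probe set (smallest adjusted p 0.0578). *Mmp9* overlapped between the series, and *Mmp2* just missed the unadjusted threshold. Without *Col1a2*+/- heart 2769, the only one of its genotype in series 27, the series difference was 0.69 for *Timp3* and -0.48 for *Mmp14*, and neither passed the unadjusted threshold. *Mmp9* missed it whichever 1 heart was left out. With the series in the fit, the genotype difference was 0.59 for *Mmp19* and 0.68 for *Timp1*, both past the unadjusted threshold and not the adjusted one (limma adjusted p = 0.908 for each). Between the series, *Mmp19* and *Timp1* overlapped, with differences of -0.14 and 0.11. What the animals of a series shared is not given by the labels, and it was not tested.

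**Figure D3:**
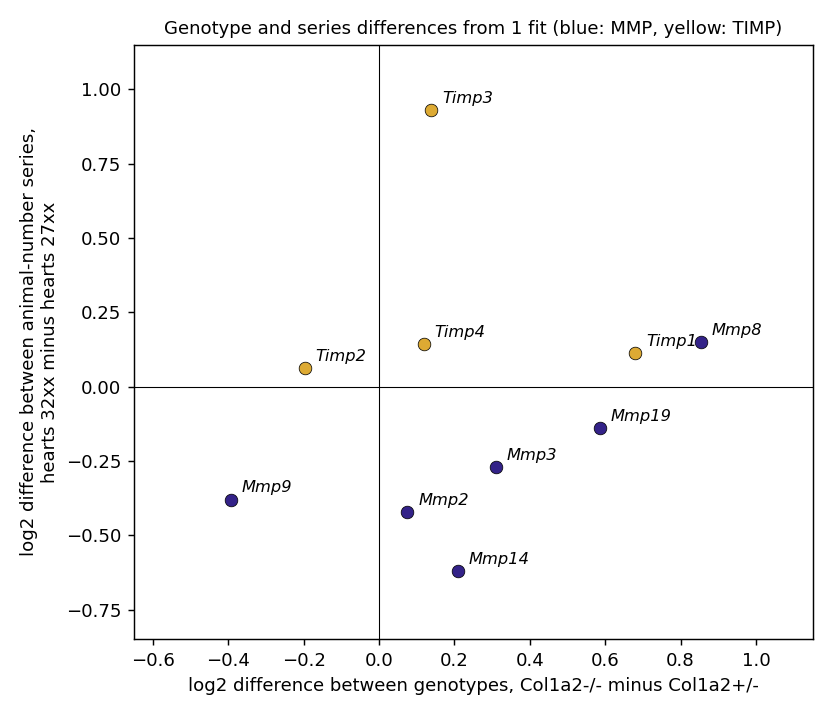
Log2 difference between genotypes (horizontal axis, *Col1a2*-/- minus *Col1a2*+/-) and between series of animal numbers (vertical axis, series 32 minus series 27) of the 10 genes, both from 1 fit, with MMPs in blue and TIMPs in yellow. *Mmp19* and *Timp1* lie to the right near the zero line of the series (0.59 and 0.68 along the genotype axis), and *Timp3* lies highest at 0.93.

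The other MMP genes were mostly dim. Of 17 listed, 15 were measured and 1, *Mmp23*, lay above the dim limit. *Mmp7* (matrilysin) was lower in *Col1a2*-/- hearts, with 4.38, 5.23 and 4.37 in *Col1a2*+/- and 3.74, 4.09 and 4.03 in *Col1a2*-/- hearts, a difference of -0.71 (SE 0.25, limma p = 0.0195, adjusted p = 0.879, exact permutation p = 0.1). All 6 values were dim, and without *Col1a2*-/- heart 2767 no other MMP was lower at the unadjusted threshold. The next smallest p-values were those of *Mmp12* (macrophage elastase, 0.47, limma adjusted p = 0.906), *Mmp1b* (-0.39, adjusted p = 0.93) and *Mmp25* (-0.24, adjusted p = 0.935). *Mmp12* did not overlap upward, and *Mmp7* and *Mmp25* did not overlap downward. These are 1 and 2 of 15 genes, against 5.13% and 5.47% of all probe sets. At an unadjusted p under 0.05, 0 were higher and 1 was lower, against 2.67% and 2.79%. The median difference of the 15 genes was 0.12, with a range of -0.71 to 0.50.

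On mouse chromosome 9 lies a cluster of 10 MMP genes, in the order *Mmp13*, *Mmp12*, *Mmp1b*, *Mmp3*, *Mmp1a*, *Mmp10*, *Mmp8*, *Mmp27*, *Mmp20* and *Mmp7*. Of the 9 measured, *Mmp13* (0.50), *Mmp12* (0.47), *Mmp3* (0.40) and *Mmp8* (0.80) had the highest differences, while their neighbours *Mmp1b* (-0.39) and *Mmp1a* (-0.16) were nominally lower. Only *Mmp7* passed the unadjusted threshold among them. All of the 9 except *Mmp3*, with a mean of 5.99, averaged below the dim limit. The highest values of *Mmp13* (6.27) and *Mmp8* (5.44) came from *Col1a2*-/- heart 2767.

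**Figure D4:**
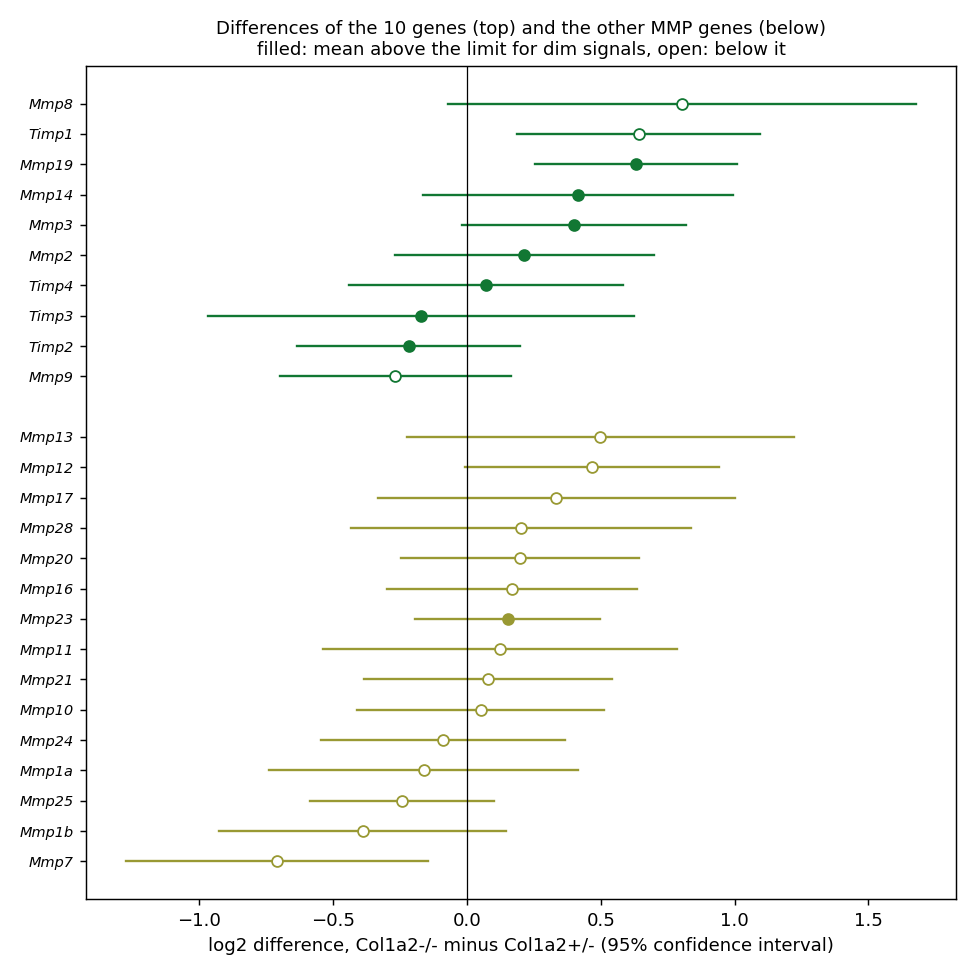
Log2 difference (horizontal axis, *Col1a2*-/- minus *Col1a2*+/-) with its 95% confidence interval for the 10 genes (green) and 15 other MMP genes (olive), filled where the mean signal of the 6 hearts lay above the dim limit. The intervals of *Mmp19* (0.25 to 1.01) and *Timp1* (0.19 to 1.10) lie above 0, and that of *Mmp7* lies below it.

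Genes that act on MMPs were taken from lists of other inhibitors, activating proteases, surface partners, ADAM proteases and inducers. Of 56 listed, 51 were measured, and none passed the adjusted threshold. At an unadjusted p under 0.05, 1 was higher (*Plau*) and 1 was lower (*Il6*), which is no larger a share than the 2.67% and 2.79% of all probe sets. *Plau* encodes urokinase, which turns plasminogen into plasmin, an activator of MMP precursors. Its signals were 5.99, 6.20 and 5.87 in *Col1a2*+/- hearts 2769, 3201 and 3294, and 6.47, 6.43 and 6.49 in *Col1a2*-/- hearts 2767, 2770 and 3200. The genotypes did not overlap, with a difference of 0.45 (SE 0.16, limma p = 0.0216, adjusted p = 0.886, exact permutation p = 0.1) and 0.46 within each series, but without *Col1a2*+/- heart 3294 no regulator was higher at this threshold.

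*Il6* encodes an inflammatory cytokine and was dim in all hearts, at 5.10, 5.11 and 5.28 in *Col1a2*+/- and 4.77, 4.55 and 4.67 in *Col1a2*-/- hearts, a difference of -0.50 (SE 0.16, limma p = 0.0114, adjusted p = 0.872, exact permutation p = 0.1). The genes with the next smallest p-values in their lists did not pass the threshold. Among activators and inducers, these were *Plat* (tissue plasminogen activator, 0.41), *Pcsk6* (a proprotein convertase, -0.47), *Il1b* (0.53) and *Jun* (a subunit of AP-1, 0.37). Among surface partners, *Cav1* (0.30), *Cd44* (0.45) and *Lrp1* (a receptor that clears proteases, 0.21) had unadjusted limma p-values of 0.0898, 0.0964 and 0.282. *Adam12* (-0.39), *Adam10* (0.16), *Adam17* (0.17) and the inhibitors *Tfpi2* (0.27), *Pzp* (0.093) and *A2m* (0.076) had unadjusted p-values of 0.164 and above.

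Markers of other cell types were read beside *Mmp19* and *Timp1*, against 2.67% of all probe sets higher and 2.79% lower, and none of them passed the adjusted threshold. Of 11 markers of activated fibroblasts, 3 were higher in *Col1a2*-/- hearts at an unadjusted p under 0.05 (*Postn*, *Cthrc1*, which was dim in all hearts, and *Cilp*), and the mean log2 signal of the list was 7.89 to 8.02 in *Col1a2*+/- and 8.14 to 8.31 in *Col1a2*-/- hearts. *Postn*, which encodes periostin, had a difference of 1.03 (SE 0.22, limma adjusted p = 0.814). *Acta2*, which encodes smooth muscle actin, had one of -0.54 (limma adjusted p = 0.911), and *Tnc* one of -0.088. Of 11 markers of resting fibroblasts, 1 was higher (*Mfap5*), and their mean ranged from 11.20 to 11.47 and from 11.35 to 11.54. Of 13 macrophage markers, 2 were higher, *C1qa* and *Cx3cr1*, of which *Cx3cr1* was dim in all hearts and overlapped between genotypes. *C1qb* and *C1qc* had differences of 0.011 and -0.14, and over the list 10 were positive, with a median of 0.13. Of 10 mural cell markers, 2 were higher, *Notch3* and *Mcam*, of which *Mcam* overlapped between genotypes. Over this list 9 were positive, with a median of 0.23. Its mean, at 9.85 to 10.07 in *Col1a2*+/- and 10.15 to 10.29 in *Col1a2*-/- hearts, did not overlap, as for activated fibroblasts. Nor did that of the surface partners (11.48 to 11.66 and 11.67 to 11.86). Of 9 endothelial markers none was higher, and their mean overlapped (12.10 to 12.16 and 12.14 to 12.31). Of 8 mast cell markers none was higher. In RNA from whole tissue, a change in the number of cells of a type cannot be told apart from a change in RNA per cell, and the part of these cell types in the *Mmp19* and *Timp1* differences was not tested.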

How the data were processed

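Hearts of 3 *Col1a2*-/- and 3 *Col1a2*+/- mice were measured on Affymetrix Clariom S mouse arrays. The deposited log2 signals hold 1 value for each probe set, already normalized by the authors. Affymetrix Expression Console is named in the submitters' processing notes and Transcriptome Analysis Console in the methods, and the method of normalization and the genome build are not given in the sources used here. The table holds 28846 probe sets, of which 6640 controls were left out, and 19572 of the other 22206 have a gene symbol. The brightest probe set stood for a gene. The fit used limma 3.58.1 (lmFit, then eBayes) under R 4.3.3, without covariates, with 4 residual degrees of freedom. Student's t-test was an alternative, which the methods name for group comparisons in general and not for the arrays. Other alternatives were other normalizations, a filter on dim probe sets, array weights, a trended and robust prior, the series of animal numbers and leaving out each heart. The comparison of the series was added after seeing the data. The number of arrays limits the precision. Labels do not state that the hearts came from separate litters, and p-values rest on the spread between these hearts. In limma, the variance of each probe set is also drawn toward a value shared over all probe sets, with 5.01 prior degrees of freedom. All 10 members are named, and of each list of other MMPs and regulators every gene with an unadjusted p under 0.05 and up to 3 more with the smallest p. Markers are named beside a member's result, some of them after their values were seen. The members and lists were chosen with earlier results of these data known. The code was tested on simulated data. Figures were drawn with matplotlib 3.10.9.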

Additional observations from a re-analysis of the deposited data

How the results depend on the processing

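*Mmp19* kept an unadjusted p under 0.05 in all 13 alternatives run (0.56 to 0.72) and *Timp1* in all 12 (0.49 to 0.83), with adjusted p from 0.722 and 0.746 upward. *Mmp3* passed in 3 of 13, *Mmp8* in 3 of 12, *Mmp14* in 1 of 13 and *Mmp9* in 1 of 12. No alternative brought a member past the adjusted threshold. Leaving out dim probe sets gave no value for *Mmp8*, *Mmp9* and *Timp1*. The genotype difference of *Timp3* changed sign with the series as a covariate (0.14), and when single hearts were left out it ran from -0.56 to 0.12, and that of *Timp4* from -0.11 to 0.24. Series differences that changed sign when a heart was left out were those of *Mmp8* (-0.46 to 0.76), *Timp1* (-0.032 to 0.26), *Timp2* (-0.081 to 0.21) and *Timp4* (-0.063 to 0.35).

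Leaving out single hearts gave 2 to 4 members higher at the unadjusted threshold (4 without *Col1a2*+/- heart 2769) and 0 to 1 member lower without overlap (1 without *Col1a2*-/- heart 2767 or 2770). The matching shares of all probe sets were not taken for these alternatives. With the series as a covariate, 1 member, *Mmp9*, was lower. Of the other MMPs, 1 was higher after quantile normalization, median centring or with array weights, and 0 were lower without dim probe sets. Without single hearts, 0 to 1 were higher and 0 to 1 lower. Of the regulators, 2 were higher without dim probe sets or with Student's t-test, and 0 were lower without dim probe sets. Without single hearts, 0 to 3 were higher (0 without *Col1a2*+/- heart 3294, 3 without *Col1a2*+/- heart 2769 or *Col1a2*-/- heart 2767) and 1 to 2 lower. *Col1a2* differed by -2.51 in Student's t-test (adjusted p 0.546, an exception to its calls) and by -2.60 to -2.39 without single hearts. Its limma adjusted p was 0.0948 without *Col1a2*+/- heart 3294 and 0.0562 without *Col1a2*-/- heart 2770. No paired analysis was run, as the labels name no littermates or other pairs, and the series of animal numbers served as a covariate only.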
